A study of Homo sapiens with 6 samples.

Results

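A set of 10 long non-coding RNAs (lncRNAs) often measured in colorectal cancer or used as markers of a cell compartment were followed in cells depleted of the lncRNA SNHG15. They were MALAT1, NEAT1, KCNQ1OT1, LINC00657 (NORAD), H19, OIP5-AS1, TUG1, PVT1, CCAT1 and CRNDE. These genes were chosen by name from 63677 genes in the count table, with results of this contrast already known, so their own changes are given as a description without p-values. Of the 10, 9 had enough reads to enter the fit over 12507 genes, and TUG1 did not. LINC00657 is an older symbol of NORAD. CCAT1 was matched through the gene table of the study, since the annotation used here (GENCODE 44 on GRCh37) has no entry for its identifier, ENSG00000247844.

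The cells were labelled LoVo, an established human colorectal cancer line. They received either a scramble siRNA or a combination of siRNAs against SNHG15 at 25 nM for 48 h, and each condition was sequenced in 3 libraries. The values are read counts per gene, from paired reads of a stranded mRNA kit. Total counts ranged from 3446922 to 10256710 per library, and scramble library 3 was the shallowest. Levels are given as CPM, counts scaled to 1000000 per library. SNHG15 itself had 290, 277 and 261 CPM in scramble libraries 1, 2 and 3 and 77.2, 83.1 and 87.2 CPM in SNHG15 siRNA libraries 1, 2 and 3. That is a log2 fold change of -1.74 (SE 0.12, edgeR adjusted p = 2.62e-05), with every siRNA library below every scramble library.

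The labelled cell type was compared with 12 colorectal epithelial markers. CDX2, an intestinal transcription factor, was present at 27.9 CPM in scramble cells. The keratins KRT8 and KRT18 were present at 46.4 and 23.9 CPM, and the adhesion gene CDH1 at 7.52 CPM, against 4.43 CPM in siRNA cells. EPCAM, KRT19, KRT20, CDX1, VIL1, CEACAM5 and CEACAM6 had 0 or 1 count in every library, and LGALS4 had at most 4. A 0 in this table can come from the annotation or the counting, since 1 broadly expressed gene of the paraspeckle list was also at 0 in all 6 libraries. EPCAM and CEACAM5 did receive single reads. Several defining markers were thus at or near 0 in libraries labelled LoVo, and the name is used below only as the label. Of 9 matched markers of immune, stromal, endothelial and muscle cells, none had enough reads to be tested. The most abundant was COL1A1, at 0.412 CPM in scramble and 0.914 CPM in siRNA cells.

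Long non-coding RNAs act where they reside. MALAT1 is retained in nuclear speckles, bodies rich in splicing factors, and NEAT1 is the scaffold on which paraspeckles are built. KCNQ1OT1 stays at the imprinted locus where it is made and silences neighbouring genes in cis. NORAD is a cytoplasmic RNA that binds Pumilio proteins, H19 is an imprinted transcript that hosts a microRNA, and OIP5-AS1 carries a long pairing site for miR-7. TUG1, PVT1, CCAT1 and CRNDE have been described in both the nucleus and the cytoplasm. MALAT1, NEAT1 and KCNQ1OT1 are here called mainly nuclear, and NORAD, H19 and OIP5-AS1 mainly cytoplasmic. The libraries came from whole cells, so a compartment here is a class from background knowledge and not a measurement.

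Sequence features of these RNAs are shown first, because the mRNA kit selects poly(A) RNA and because several of the RNAs are known through short binding sites. PVT1 and CCAT1 were not included in the comparisons of A runs, Pumilio elements and microRNA seed matches. The mature 3′ end of MALAT1 has no poly(A) tail. It is formed by cleavage at a genome-encoded A-rich tract, and the longest A run of MALAT1 lies in it. This run has 13 bases and starts at base 8459 of the 10434-base transcript, which has a single exon (GRCh37, chr11:65273569-65273581, plus strand). The run is in capitals, within 12 bases on either side (chr11:65273557-65273593).
MALAT1 A-rich tract: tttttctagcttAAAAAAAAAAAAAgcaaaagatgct
The longest A run was 22 bases in NEAT1, 29 bases in KCNQ1OT1 and in OIP5-AS1, 18 in TUG1, 10 in NORAD and in CRNDE, and 4 in H19. The primers designed for MALAT1 RT-PCR, its usual nuclear control, each matched its chromosome once. They enclose 84 bases, from base 1660 to base 1743 of the transcript (chr11:65266770-65266853).
MALAT1 forward primer: GACGGAGGTTGAGATGAAGC
MALAT1 reverse primer: ATTCGGGGCTCTGTAGTCCT

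NORAD is made from 1 exon of 5401 bases (chr20:34633540-34638940, minus strand). The Pumilio element TGTANATA, searched on the sense strand with overlaps counted, occurred 15 times in it. Of 2953 transcripts between 4000 and 7000 bases among the tested genes, 45.6% had at least 1 such element, and the only one with as many as 15 was NORAD itself. That is 2.78 elements per kb in NORAD, against 0.268 in TUG1, 0.264 in NEAT1, 0.113 in OIP5-AS1 and 0.0982 in KCNQ1OT1. None was found in MALAT1, H19 or CRNDE, and PVT1 and CCAT1 were not included. A subset, 4 of the 15 NORAD elements, is shown to illustrate the repeated form, with the element in capitals. They lie on chromosome 20, minus strand, at 34637728-34637751, 34637426-34637449, 34636402-34636425 and 34635275-34635298.
NORAD element at base 1198: cactactgTGTATATAgttgacaa
NORAD element at base 1500: cttatctgTGTATATAgtgtacat
NORAD element at base 2524: taacacttTGTAAATAgcttttaa
NORAD element at base 3651: tgctactgTGTATATAatggaaaa

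OIP5-AS1 held 3 matches to the seed of miR-7-5p in its longest transcript of 8881 bases. One of them, at chr15:41592760-41592800 on the plus strand, also held a run of 14 bases complementary to the 3′ part of the microRNA. The longest such run upstream of the other matches was 5 and 3 bases. KCNQ1OT1 held 6 seed matches in 91667 bases, and MALAT1, NEAT1, NORAD, H19, TUG1 and CRNDE held none. In the site below, both complementary stretches are in capitals, and in the microRNA, the seed (bases 2 to 8).
OIP5-AS1 miR-7 site: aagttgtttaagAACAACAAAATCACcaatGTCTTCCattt
miR-7-5p: uGGAAGACuagugauuuuguuguu
H19 holds both arms of miR-675 in its longest transcript of 2396 bases, at bases 1021 to 1043 and 1056 to 1075. They are shown because reads on H19 do not tell the host RNA from its microRNA precursor. The seeds, in capitals, differ.
miR-675-5p: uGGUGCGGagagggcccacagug
miR-675-3p: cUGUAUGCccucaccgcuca

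Of the 9 tested lncRNAs, 2 were called at an adjusted p under 0.05 by edgeR, MALAT1 and CCAT1, both higher in SNHG15 siRNA cells, and none was called lower. Over all 12507 tested genes 5.36% were called, 3.13% higher and 2.23% lower. The groups did not overlap for 4 of the 9, MALAT1, KCNQ1OT1 and CCAT1 above and PVT1 below, against 28.8% of all tested genes. The members were chosen with this contrast known, so nothing is read from these shares.

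**Figure D1:**
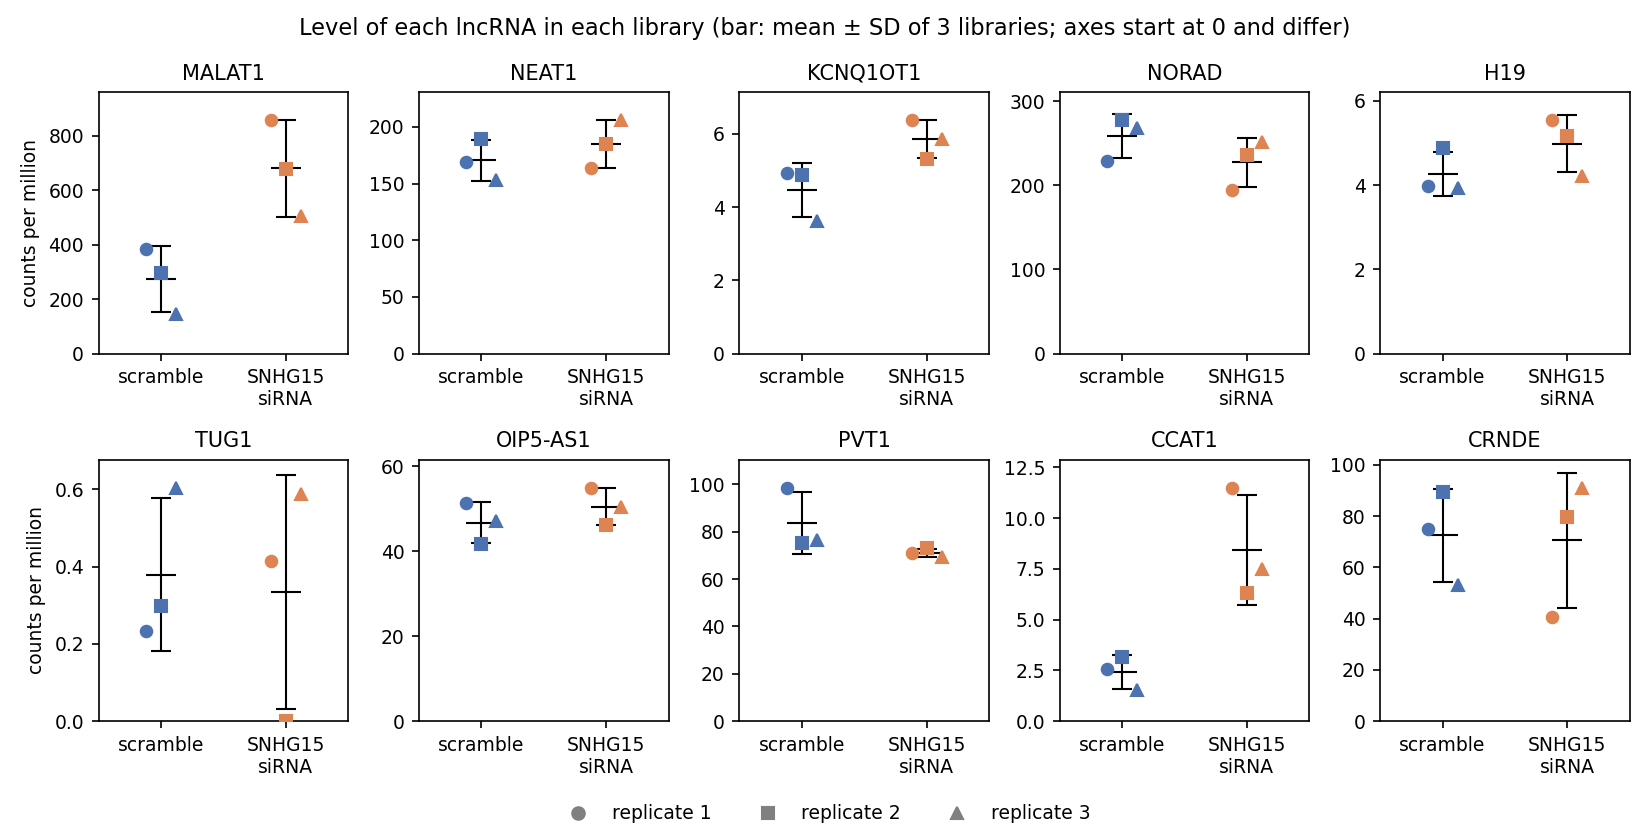
CPM of the 10 lncRNAs in each of the 3 scramble and 3 SNHG15 siRNA libraries, with the mean and SD. Each panel has its own axis from 0. MALAT1 and CCAT1 stand higher in all siRNA libraries, PVT1 slightly lower, and the groups overlap for NEAT1, NORAD, H19, OIP5-AS1, TUG1 and CRNDE.

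MALAT1 (ENSG00000251562) was the member with the most reads. It had 386, 296 and 144 CPM in scramble libraries 1, 2 and 3 and 859, 678 and 505 CPM in SNHG15 siRNA libraries 1, 2 and 3. Every siRNA library was above every scramble library, and scramble library 3, which had 476 reads on MALAT1 against 2974 and 3292 in the others, was the lowest. The group means were 275 ± 122 and 681 ± 177 CPM (SD, n = 3), with a log2 fold change of 1.30 (SE 0.28). This change ranked 181st by size among the 12507 tested genes. It was 0.99 without the shallow scramble library 3 and 0.99 to 1.62 with each library left out in turn, and it was past the threshold in 5 of these 6 fits. The call was lost without scramble replicate 2 (log2 fold change 1.35). In bulk libraries, more MALAT1 per cell and more cells that carry it cannot be told apart. The kit selects poly(A) RNA, and mature MALAT1 has no poly(A) tail. How far these reads follow total MALAT1 was not tested, also for each ratio, sum and rank below that uses them.

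NEAT1 (ENSG00000245532) lies 52.1 kb from MALAT1 on the same strand of chromosome 11, at 65190245 to 65213011. It had 169, 189 and 153 CPM in scramble and 164, 185 and 206 CPM in siRNA libraries. These ranges overlapped, and the log2 fold change was 0.11 (SE 0.13). Ratios of MALAT1 to NEAT1 were taken from CPM, without scaling for length. Within a library they were 2.28, 1.56 and 0.941 in scramble cells and 5.25, 3.67 and 2.45 in siRNA cells. The lowest siRNA ratio was thus above the highest scramble ratio, although the replicates of each condition differed from each other by more than 2-fold.

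KCNQ1OT1 (ENSG00000269821) lies at 2618538 to 2721233 on the minus strand of chromosome 11, inside KCNQ1, and had few reads, 42, 49 and 12 in scramble and 46, 37 and 50 in siRNA libraries. These are 4.92, 4.87 and 3.63 CPM and 6.38, 5.32 and 5.87 CPM. The siRNA libraries were all above the scramble libraries, but the gap between the nearest of them was smaller than the spread within either condition. The log2 fold change of 0.34 (SE 0.23) was not called.

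The mainly cytoplasmic lncRNAs were not called. NORAD (ENSG00000260032) had 229, 277 and 269 CPM in scramble and 195, 235 and 251 CPM in siRNA libraries, with a log2 fold change of -0.19 (SE 0.14). OIP5-AS1 (ENSG00000247556; chromosome 15, 41576156 to 41614590, plus strand) had 51.4, 41.8 and 47.2 CPM in scramble and 55.0, 46.2 and 50.4 CPM in siRNA libraries, with a log2 fold change of 0.11 (SE 0.14). H19 (ENSG00000130600; chromosome 11, 2016396 to 2025782, minus strand) had 34, 49 and 13 reads in scramble and 40, 36 and 36 in siRNA libraries, with a log2 fold change of 0.19 (SE 0.24). The groups overlapped for all 3 of these RNAs.

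**Figure D2:**
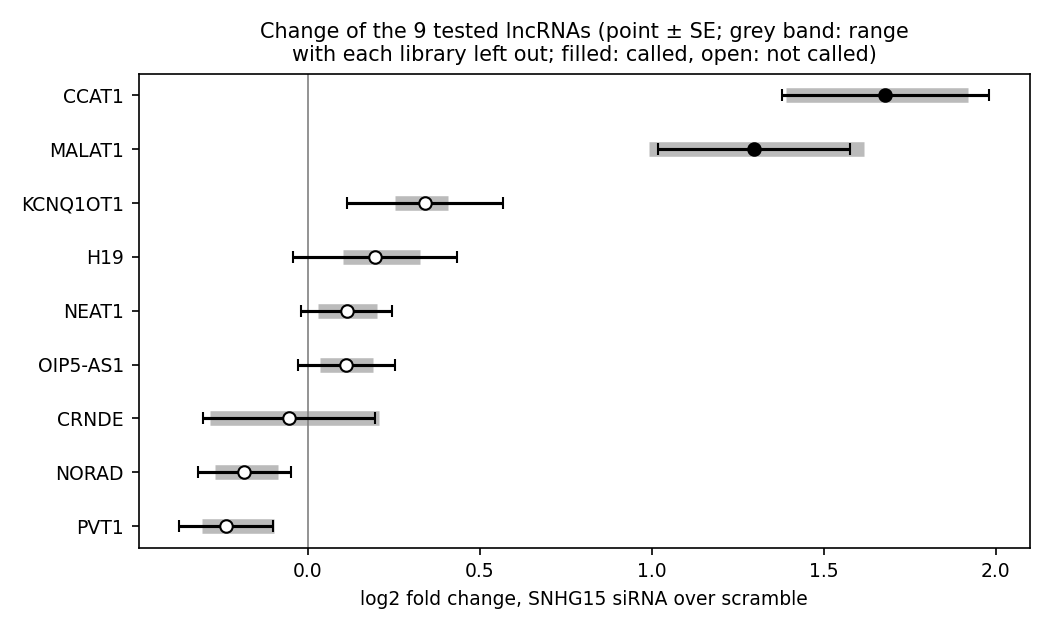
Log2 fold change of the 9 tested lncRNAs, SNHG15 siRNA over scramble, as a point with its SE, and in grey the range when each of the 6 libraries was left out. CCAT1 (1.68) and MALAT1 (1.30) are the filled points, which were called, and the open points lie between -0.24 and 0.34.

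The summed level of the 3 mainly nuclear lncRNAs was 450 ± 134 CPM in scramble and 871 ± 156 CPM in siRNA cells, and that of the 3 mainly cytoplasmic ones 309 ± 21.8 and 283 ± 25.5 CPM (SD, n = 3). The ratio of both sums was 1.97, 1.51 and 0.940 in scramble and 4.03, 3.03 and 2.34 in siRNA libraries, a log2 change of 1.09. Without MALAT1 the ratio was 0.613, 0.599 and 0.490 in scramble and 0.666, 0.663 and 0.693 in siRNA libraries, a log2 change of 0.25. The difference between both classes thus lay mostly in MALAT1, and neither NEAT1 nor KCNQ1OT1 was called. MALAT1 alone held 2.74, 2.04 and 1.08% of all lncRNA reads in scramble libraries and 6.34, 4.85 and 3.74% in siRNA libraries.

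**Figure D3:**
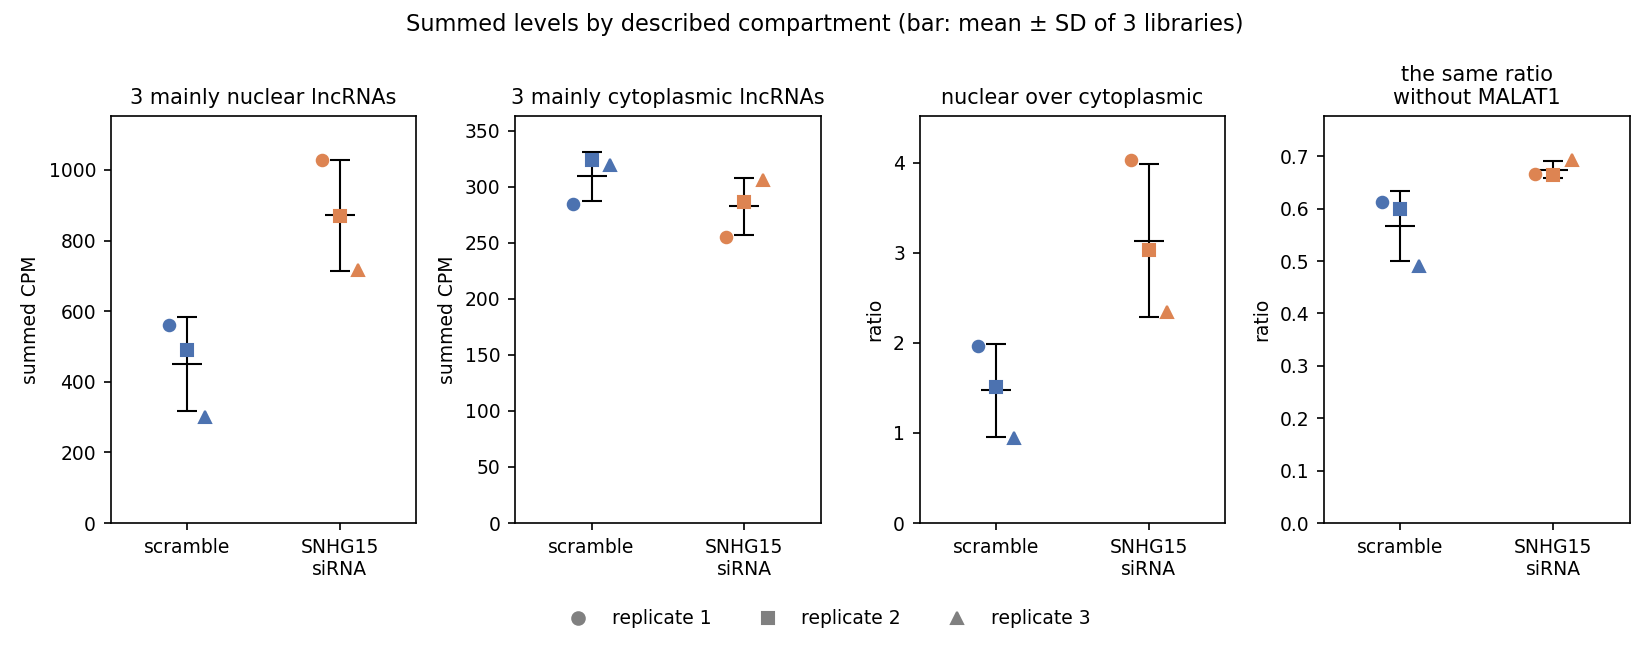
Summed CPM of the mainly nuclear lncRNAs (MALAT1, NEAT1, KCNQ1OT1) and the mainly cytoplasmic lncRNAs (NORAD, H19, OIP5-AS1), and their ratio with and without MALAT1, in each library with the mean and SD. The ratio is 0.940 to 1.97 in scramble and 2.34 to 4.03 in siRNA libraries, and 0.490 to 0.613 and 0.663 to 0.693 once MALAT1 is left out.

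CCAT1, a transcript of the colorectal cancer risk region 8q24, had 22, 32 and 5 reads in scramble and 83, 44 and 64 reads in SNHG15 siRNA libraries. These are 2.58, 3.18 and 1.51 CPM and 11.5, 6.33 and 7.52 CPM. Each siRNA library was above all scramble libraries, and the log2 fold change was 1.68 (SE 0.30). It was 1.39 to 1.92 with each library left out and called in all 6 of these fits. Without scramble replicate 1 the call only just passed the threshold. Summed over libraries, 59 reads in scramble gave 2.69 CPM (95% exact Poisson interval 2.05 to 3.48) and 191 reads in siRNA cells gave 8.42 CPM (7.27 to 9.70), intervals that cover counting error only. CCAT1 remained a low RNA in both conditions.

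PVT1 (ENSG00000249859), the lncRNA next to MYC in the same region, had 98.7, 75.4 and 76.5 CPM in scramble and 70.8, 72.9 and 69.3 CPM in siRNA libraries. The siRNA libraries were all lower, by a log2 fold change of -0.24 (SE 0.14), which was not called. MYC, the oncogene 51.6 kb upstream, had 708, 757 and 591 CPM in scramble and 291, 512 and 503 CPM in siRNA libraries. Its log2 fold change of -0.66 (SE 0.19) missed the threshold with edgeR (adjusted p = 0.0613) and passed it with DESeq2 (adjusted p = 0.0157), and the groups did not overlap. With edgeR it also passed without a filter and without siRNA replicate 1 or 3.

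CRNDE (ENSG00000245694; chromosome 16, 54879101 to 54963101, minus strand), which is raised in colorectal tumours, had 75.0, 89.2 and 53.2 CPM in scramble and 40.8, 79.7 and 91.1 CPM in siRNA libraries. SNHG15 siRNA library 1 was the lowest of all 6 and library 3 the highest, and the log2 fold change of -0.05 (SE 0.25) became 0.21 without siRNA replicate 1, 0.13 without scramble replicate 2 and -0.28 without siRNA replicate 3. In the same siRNA library 1, MYC was at its lowest, and MALAT1, KCNQ1OT1, H19, OIP5-AS1 and CCAT1 were at their highest. TUG1 (ENSG00000253352; chromosome 22, 31365231 to 31375381, plus strand) had 2, 3 and 2 reads in scramble and 3, 0 and 5 in siRNA libraries. These counts are too few for a fold change, with summed intervals of 0.129 to 0.659 CPM and 0.152 to 0.695 CPM. As with the markers above, so few reads can also come from the annotation or the counting, which was not tested. The level of TUG1 is therefore a level in these counts only.

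Levels of different lncRNAs were ranked per kb of the union of their exons. The lengths came from GENCODE 44, and the annotation used for counting is not given, so reads and lengths may cover different exons. The sums and ratios given above used CPM, which is not divided by length. In scramble cells NORAD was the highest, at 47.8 ± 4.79 CPM per kb, followed by MALAT1 at 26.4 ± 11.7 and NEAT1 at 7.49 ± 0.793, without overlap between neighbours. CRNDE (4.92 ± 1.23) and PVT1 (3.28 ± 0.516) overlapped in range, and OIP5-AS1 (2.09 ± 0.217) and H19 (1.23 ± 0.153) followed without overlap. KCNQ1OT1 (0.0483 ± 0.00791) and TUG1 (0.0374 ± 0.0195) overlapped at the bottom. In SNHG15 siRNA cells MALAT1 was first, with a mean of 65.2 CPM per kb (48.4 to 82.3) against 42.0 (36.0 to 46.5) for NORAD, and every library of MALAT1 was above every library of NORAD. The order depended on the length used. Per kb of the longest annotated transcript, PVT1 was at 34.1 in scramble cells, between NORAD and MALAT1, and CRNDE was at 11.5, OIP5-AS1 at 5.27 and H19 at 1.78. For NEAT1, with 9 annotated transcripts, both lengths were nearly the same (22767 and 22743 bases), so this comparison could not move it. Reads from a shorter NEAT1 transcript would give a higher level per kb, which was not tested. CCAT1 has no annotated length here and was not placed.

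**Figure D4:**
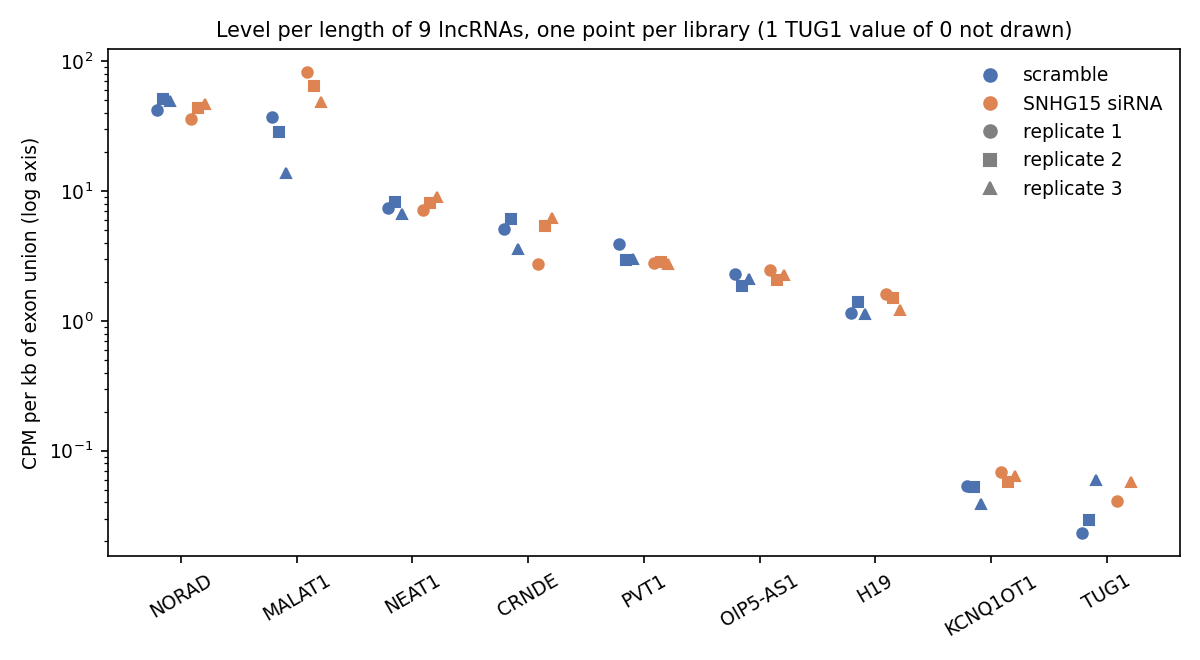
CPM per kb of exon union (log axis) of 9 lncRNAs in each library, ordered by the scramble mean. The highest is NORAD in scramble (47.8) and MALAT1 in SNHG15 siRNA cells (65.2), and KCNQ1OT1 and TUG1 lie far below all others.

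Proteins that act with these RNAs were examined next. Of 15 tested paraspeckle proteins, 2 fell and none rose, with 12 of 15 below 0 and a median log2 fold change of -0.27, against a median of 0.00 and 50.1% of genes above 0 over all tested genes. HNRNPH3, an RNA-binding paraspeckle protein, fell from 295 to 160 CPM (log2 fold change -0.88, SE 0.19, edgeR adjusted p = 0.0201). The core proteins SFPQ and NONO, which hold NEAT1 in the paraspeckle, had log2 fold changes of -0.42 and -0.37 and were not called (edgeR adjusted p = 0.0937 and 0.104). HNRNPH3 was lost as a call without scramble replicate 2 or 3.

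Among 14 tested proteins of nuclear speckles and of MALAT1 3′ end processing, edgeR and DESeq2 called none, and 3 had an unadjusted p under 0.05. The median log2 fold change was -0.11. The 2 largest values were -0.44 for RPP38, a subunit of the RNase P that cleaves MALAT1, and -0.42 for the splicing factor SRSF2 (edgeR adjusted p = 0.109 and 0.111). Of 8 tested partner proteins of NORAD and OIP5-AS1, none was called by either tool, 2 had an unadjusted p under 0.05, and the median was 0.01. TOP1, a topoisomerase that joins a NORAD complex, had a log2 fold change of 0.36, and RBMX, which binds NORAD, had -0.29 (edgeR adjusted p = 0.153 and 0.157). The Pumilio gene PUM2 had 0.20 (SE 0.18). OIP5, the gene antisense to OIP5-AS1, stood at 0.284 CPM in scramble and 0.327 CPM in siRNA cells and was not tested.

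Of the 8 tested genes of Polycomb repressive complex 2, which writes a repressive histone mark and binds many lncRNAs, 1 fell and none rose. EZH2, its catalytic subunit, fell from 148 to 96.9 CPM (log2 fold change -0.62, SE 0.13, edgeR adjusted p = 0.0191), with every siRNA library below every scramble library. It was past the threshold in 3 of the 6 fits with a library left out and was lost without scramble replicate 1 or 2 or siRNA replicate 2. The list's median was 0.24, opposite in sign to EZH2.

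Neighbours of the lncRNAs on the genome mostly did not pass the test. In the imprinted region of H19 and KCNQ1OT1, 1 of 10 tested genes rose and none fell. SLC22A18, a transporter gene of the KCNQ1OT1 domain, rose from 15.3 to 30.4 CPM (log2 fold change 0.97, SE 0.15, edgeR adjusted p = 0.00509), and it was called in all 6 fits with a library left out. Its antisense gene SLC22A18AS overlaps it and had 1.38 and 2.30 CPM (0.84, SE 0.38, edgeR adjusted p = 0.208). KCNQ1, in which KCNQ1OT1 lies on the other strand, had a log2 fold change of 0.51 (SE 0.26), and the cell cycle inhibitor CDKN1C had 0.25 (SE 0.14), neither called (edgeR adjusted p = 0.270 and 0.309). Whether strand was used in counting is not given in the sources used here, so reads of KCNQ1 and KCNQ1OT1 may not be fully separated. IGF2, the imprinted partner of H19, was listed at 0 in every library.

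In the 8q24 region of CCAT1 and PVT1, 2 of 8 tested genes fell with edgeR and 3 with DESeq2, MYC being the third, and none rose. With edgeR none was called without any 1 of the scramble replicates or without siRNA replicate 2. CASC19, a lncRNA of the same risk region, fell from 5.89 to 2.69 CPM (log2 fold change -1.17, SE 0.31, edgeR adjusted p = 0.0441), opposite in sign to CCAT1. It was past the threshold in only 1 of 6 fits with a library left out, the one without siRNA replicate 1. ASAP1, a regulator of ARF GTPases, fell from 62.3 to 40.8 CPM (-0.61, SE 0.14, adjusted p = 0.0259 by edgeR), past the threshold in 2 of 6 such fits.

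Among 12 tested neighbours of the other lncRNAs, 1 rose and 1 fell. SLC25A45, a mitochondrial carrier gene beside NEAT1 and MALAT1, rose from 1.69 to 5.42 CPM (log2 fold change 1.47, SE 0.32, edgeR adjusted p = 0.0201), past the threshold in 3 of 6 fits with a library left out. EPB41L1, near NORAD, fell from 78.8 to 46.2 CPM (-0.76, SE 0.16, edgeR adjusted p = 0.0173), past it in 2 of 6. Scramble replicates 1 and 2 and siRNA replicate 2 were the libraries whose absence cost both calls. FRMD8, next to NEAT1, had a log2 fold change of 0.13 (SE 0.14). MORC2, beside TUG1, had 0.02 (SE 0.22). IRX5, which lies 1.68 kb from CRNDE, had -0.15 (SE 0.30), and none of these 3 was called.

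Other lncRNAs were counted for comparison. Of 818 other tested lncRNAs, 31 were called higher and 12 lower, with a median log2 fold change of 0.08. Single-exon lncRNAs, the class of MALAT1, NEAT1 and NORAD by their canonical transcripts, counted 7 higher and 1 lower of 240, with a median of 0.02. Of 6 tested nuclear lncRNAs outside the 10, 1 was called higher and none lower. By sign, 3 were above 0 and 3 below, with a median log2 fold change of -0.21. TERC, the RNA template of telomerase, rose from 3.33 to 7.33 CPM (1.09, SE 0.23, edgeR adjusted p = 0.0175), and the call was lost without any 1 of the 3 scramble replicates. TERC had few reads, 34, 33 and 9 in scramble and 56, 49 and 61 in siRNA libraries. How far these reads, from a kit that selects poly(A) RNA, follow total TERC was not tested. Of 10 other cytoplasmic lncRNAs, 2 were called lower and none higher. By sign, 2 were above 0 and 8 below, with a median of -0.24, close to that of the nuclear list. The 2 called genes are snoRNA host genes like SNHG15, but so are several uncalled genes of this list. Among these, SNHG1 had a log2 fold change of 0.25 and SNHG12 of -0.37. SNHG8 fell from 152 to 107 CPM (-0.50, SE 0.11, edgeR adjusted p = 0.0221), and SNHG5 from 326 to 228 CPM (-0.52, SE 0.13, edgeR adjusted p = 0.0372), which held in 2 and in 1 of the 6 fits with a library left out. Of 12 other tested lncRNAs known from colorectal cancer, CASC19 was the only one called.

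The genes whose levels were most like those of a member were found by Pearson's r of log2 CPM over the 6 libraries. All genes share the differences in depth and condition between these libraries. The genes named were picked as the highest of 12507 over only 6 libraries, so their r is high by selection and is given as a description. For MALAT1 these were the pseudogene PABPN1P2 (r = 0.998), SH3TC1 (0.997) and the kinase gene CSNK1A1 (0.995). PABPN1P2 had 4.45, 3.68 and 1.51 CPM in scramble and 12.9, 9.35 and 6.81 CPM in siRNA libraries, the same order of libraries as MALAT1. For CCAT1 they were the cell adhesion gene AFDN (0.997), the kinase gene AAK1 (0.996) and the lncRNA CBARP-DT (0.995). For KCNQ1OT1 they were POGLUT2 (0.997), the kinase gene PAK2 (0.996) and RNF157 (0.989). For NEAT1 they were the zinc finger gene ZNF76 (0.996), TMEM254 (0.992) and the nuclear receptor gene HNF4G (0.992).

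Promoters were available for 6 of the 10 lncRNAs (RefSeq, GRCh38.p14, from 250 bases before to 50 after the start). The E-box CACGTG, a palindrome that MYC and related factors bind, was in the promoters of NORAD, OIP5-AS1 and TUG1. It was in none of those of MALAT1, H19 and CRNDE, and 7.26% of 35116 promoters held it. The windows are shown because MYC lay below scramble in each siRNA library, and the E-box is in capitals. They lie at chr20:36051081-36051110 (minus strand), chr15:41283740-41283767 and chr22:30969176-30969205 (plus strand).
NORAD promoter: gggccctaacccCACGTGaccacaccccat
OIP5-AS1 promoter: actatcttacCACGTGgtacagcttcta
TUG1 promoter: tcccgcccctgtCACGTGacagcgtgcgcc
Of these 3 lncRNAs, NORAD and OIP5-AS1 were not called and TUG1 had too few reads to be tested. A match of these letters is a description of the sequence and not of binding.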

How the data were processed

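The authors deposited raw counts of reads per Ensembl gene, without normalization, for all 6 libraries. The labels name TRIzol extraction, STAR, featureCounts and hg19, while the study's methods describe another extraction kit and aligner. The annotation, strand setting and treatment of multi-mapped reads are not given in the sources used here. The members and lists were chosen with earlier results of these data known. Named genes were all members, SNHG15, every listed gene past the threshold or else the 2 with the largest change, 9 direct neighbours, and 3 genes most like each of 4 members. Some of these genes are not reported here.

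Counts were fitted with edgeR 4.0.16 (R 4.3.3; filterByExpr with a minimum count of 10 and total of 15, TMM, quasi-likelihood test) over 12507 genes, with Benjamini-Hochberg adjustment and a threshold of 0.05. CPM used TMM library sizes. The labels do not say whether replicates were separate cultures, while the study calls them biological. Scripts were tested on simulated data. DESeq2 1.42.0, other scalings and filters, a replicate block and each library left out were alternatives. No pair of replicates agreed within sampling noise. With 3 libraries per condition, small changes of low lncRNAs were not detectable.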

Additional observations from a re-analysis of the deposited data

How the results depend on the processing

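The 2 calls among the 9 tested lncRNAs, MALAT1 and CCAT1, were both made by DESeq2, with RLE or upper-quartile factors, without a filter, and with library sizes that left out mitochondrial genes and the 10 lncRNAs. With 10 counts required in every library, 1 lncRNA was called, since CCAT1 with 5 reads in scramble library 3 was no longer tested. With each library left out, 1 to 2 lncRNAs and 139 to 812 genes were called, against 671 genes with all libraries. Without a filter 1312 genes were called. Of the 9 values, that of CRNDE alone turned sign, without siRNA replicate 1 (0.21) and without scramble replicate 2 (0.13). Fitted with a replicate block, 543 genes and the same number of lncRNAs, 2, were called, and the block cost the calls of CASC19 and ASAP1 among the genes named. Same-numbered libraries had correlations of -0.07 to 0.155 and others -0.166 to 0.145, which showed no pairing by number. With 3 libraries per condition these values cannot settle whether the samples were paired. SNHG5, CASC19, SLC25A45 and TERC were not called when 10 counts were required in every library. Reads limit KCNQ1OT1, H19, CCAT1 and TUG1 most, with at most 83 per library.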
